A study of Macaca mulatta with 4 samples.

Results

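Antiviral restriction factors are host proteins that block a step of a virus's life inside the cell, and 9 of them outside the TRIM ubiquitin ligase family are described here in rhesus macaque (Macaca mulatta) morulae: SAMHD1, ZC3HAV1, OAS1, IFIT1, MX1, MX2, BST2, IFITM3 and ISG15. The genes were taken by symbol from a table of 21314 Ensembl macaque genes, and 7 of the 9 had a row there, 1 row each. IFITM3 and ISG15 had no matched row and were not analysed here.

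The morula is the compacting ball of cells that precedes the blastocyst. RNA was sequenced from 2 libraries labelled AG and 2 labelled GG, which the series describes as androgenetic embryos, whose nuclear genome is of paternal origin alone, and gynogenetic embryos, whose nuclear genome is of maternal origin alone. No further allele, agent or treatment is given for either group, and the protocol text does not make clear how many embryos a library holds or whether the replicates are different animals. P-values here thus reflect only how far these samples spread, which may be technical. The cDNA was amplified with a kit for very low RNA input.

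Most restriction factors are interferon-stimulated genes. Viral RNA or DNA is detected by sensors such as RIG-I or cGAS, which leads to secretion of interferon; interferon binds its receptor, and signalling through JAK kinases, STAT proteins and IRF9 then switches on these genes. Early embryonic and pluripotent cells are known for a weak interferon response and for expressing some restriction factors without it.

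The 4 libraries held 14129608 to 29733977 estimated counts, and 15370 to 16313 genes had a count. All 9 matched pluripotency and morula markers, of 17 listed, had counts in every library, with summed levels of 696 and 808 CPM in AG and 1380 and 1715 CPM in GG. Of the 9, 3 were called higher in GG and 2 in AG (55.6% in all, against 12.9% of all tested genes). CPM is the count scaled to the library's normalised total, and levels are not corrected for gene length, so they are compared between libraries and not between genes. Summed sperm markers (8 of 10 matched) stood at 1.33 to 2.07 CPM and summed cumulus and granulosa cell markers (10 of 15 matched) at 22.7 to 43.5 CPM, with 0 of 2 and 0 of 3 tested genes called (edgeR, 0 and 1 at an unadjusted p under 0.05). Most of the cumulus and granulosa sum was NR5A2 in every library, at 36.8 and 35.25 CPM in AG and 16.8 and 16.0 CPM in GG. Summed blood cell markers (17 of 24 matched) were higher in AG, at 164 and 78.0 CPM against 20.0 and 22.1 CPM in GG. Most of the AG sums came from PTPRC, the leukocyte surface phosphatase CD45. It stood at 141 and 65.9 CPM in AG and 6.46 and 3.44 CPM in GG. Without PTPRC the sums of the groups overlapped. PTPRC and the B cell gene CD79A were called higher in AG, with adjusted p = 0.0168 and 0.0374 in edgeR. Without GG replicate 1 or GG replicate 2 both calls were lost (adjusted p = 0.0754 to 0.151). Other defining blood markers were at or near 0: NKG7 had 0 counts in every library, CD3E had 1 count in all, and ITGAM had 0 counts in AG.

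None of the 4 antiviral members that passed the filter on low counts was called different between AG and GG. These were SAMHD1, ZC3HAV1, BST2 and MX2, of which 0 were called at an adjusted p under 0.05 in edgeR's quasi-likelihood test, 0 had an unadjusted p under 0.05, and 0 were called by DESeq2, whereas 12.9% of all 13227 genes tested were called (6.34% with the higher level in GG, 6.58% in AG) and 32% had an unadjusted p under 0.05. The remaining 3 with a row, MX1, IFIT1 and OAS1, had too few counts to be tested. The median log2 fold change of the 4 was 0.04 (GG minus AG), and that of all tested genes was also 0.04. The GG and AG libraries did not overlap for 1 of the 4, SAMHD1, as against 64.1% of all tested genes. In these bulk libraries, fewer cells that express a gene and less of its RNA per cell cannot be told apart.

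**Figure D1:**
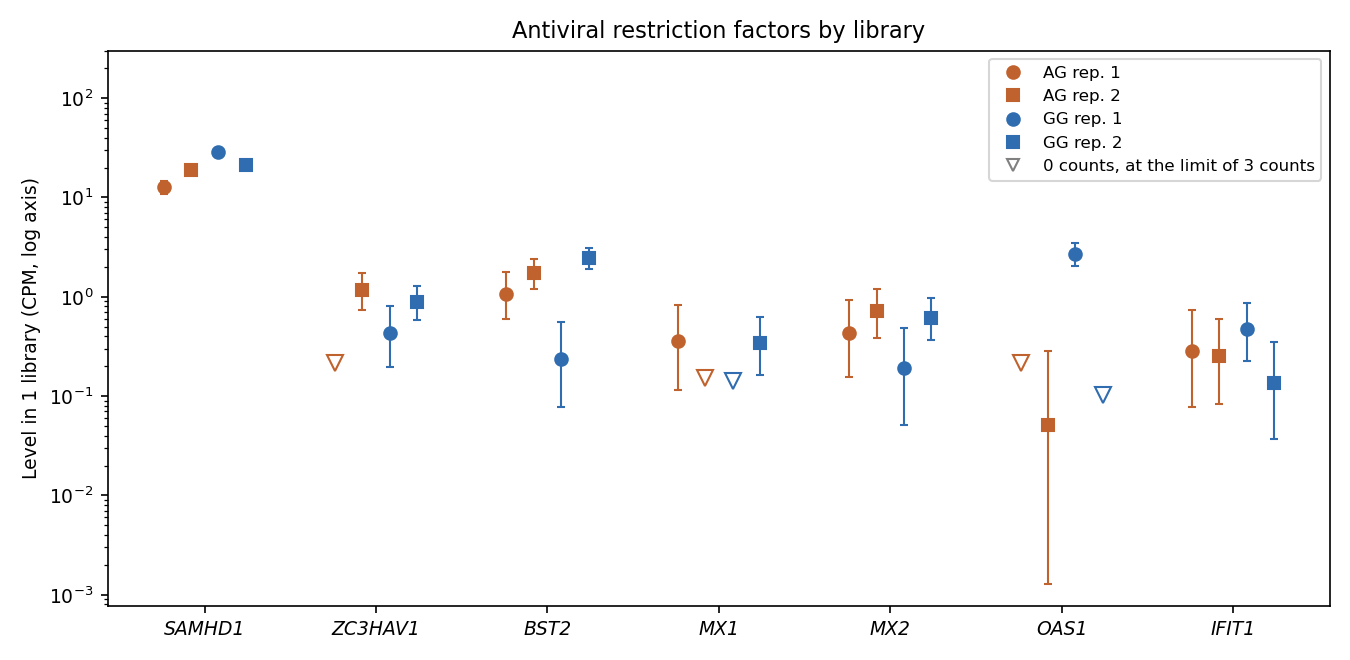
Level of each of the 7 antiviral genes with a row, in CPM on a log axis, with 1 point per library (AG orange, GG blue; circles replicate 1, squares replicate 2); bars are exact 95% Poisson intervals, which cover counting error only, and open triangles mark libraries with 0 counts at the level that 3 counts would give. SAMHD1 lies between 12.6 and 28.6 CPM with GG above AG, while every value of the other 6 genes is below 3 CPM, with OAS1 detected above 3 counts in GG replicate 1 alone.

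SAMHD1 degrades deoxynucleotide triphosphates and so starves reverse transcription of retroviruses. It was the best counted member, with 177 and 375 counts in AG replicates 1 and 2 and 602 and 616 counts in GG. These were levels of 12.6 CPM (95% counting interval 10.8 to 14.6) and 19.05 CPM (17.2 to 21.1) in AG, and 28.6 CPM (26.3 to 31.0) and 21.0 CPM (19.4 to 22.7) in GG. Both GG libraries lay above both AG libraries, although the intervals of AG replicate 2 and GG replicate 2 overlapped. The AG mean was 15.8 ± 4.55 CPM and the GG mean 24.8 ± 5.36 CPM (SD, n = 2), giving a log2 fold change of 0.65 ± 0.40 (SE; edgeR adjusted p = 0.318). AG replicate 2 was 1.51-fold above AG replicate 1, and GG replicate 1 was 1.36-fold above GG replicate 2. With a pair of libraries in each group, the difference did not pass the test. Over the 11 alternatives its log2 fold change ran from 0.37 without AG replicate 1 to 0.95 without AG replicate 2, and SAMHD1 was called in none. With both GG libraries above both AG libraries, leaving out 1 library could hardly change the sign, so its constancy adds no support. Cyclin A2 with CDK1 or CDK2 is known to phosphorylate SAMHD1 in dividing cells and to restrain its antiviral activity. CCNA2 averaged 123 ± 31.4 CPM over the AG libraries and 143 ± 27.9 CPM over the GG libraries, and CDK1 averaged 760 ± 26.5 and 538 ± 13.7 CPM. Neither passed the test (edgeR adjusted p = 0.668 and 0.163); CDK2 had no matched row. CCNA2 and CDK1 were named after their values were seen.

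By the shape of their levels over the 4 libraries, the genes most like SAMHD1 among symbols with a mean of at least 10 CPM were DDX23, an RNA helicase of the spliceosome, MTPN (myotrophin) and LMBR1. The root mean square difference of their centred log2 levels from those of SAMHD1 was 0.0413, 0.0416 and 0.0441. With 4 libraries many profiles are alike, and none of the 3 was called (edgeR adjusted p = 0.270 to 0.318).

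ZC3HAV1, or ZAP, binds CpG-rich viral RNA and directs it to decay. It had 0 counts in AG replicate 1, which allows up to 0.214 CPM, and 23 counts (1.17 CPM, 95% counting interval 0.741 to 1.75) in AG replicate 2. GG replicates 1 and 2 had 9 counts (0.427 CPM, 0.195 to 0.811) and 26 counts (0.887 CPM, 0.579 to 1.30), and both lay within the span of the AG pair. The AG pair differed at least 5.47-fold and the GG pair 2.07-fold, so the group difference of 0.13 ± 1.48 (SE) on the log2 scale was far smaller than the spread (edgeR adjusted p = 0.960). Its sign depended on which library was left out, from -0.82 without AG replicate 1 to 6.84 without AG replicate 2, the latter against 0 counts in the remaining AG library, and neither was called (adjusted p = 0.663 and 0.140).

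KHNYN, an endonuclease that cuts RNA bound by ZAP, was sparse in AG and present in GG. It had 0 and 14 counts in AG (0 and 0.711 CPM) and 103 and 92 counts in GG (4.89 and 3.14 CPM), so the groups did not overlap. The log2 fold change was 3.40 ± 1.31 (SE), which edgeR did not call over all genes (adjusted p = 0.142); DESeq2 called it (adjusted p = 0.0352), as did edgeR without AG replicate 2 (0.0114), where the remaining AG library had 0 counts. With each of the other libraries left out in turn the log2 fold change was 2.48 to 3.68 and was not called (adjusted p = 0.0871 to 0.427). N4BP1, a related endonuclease named after its values were seen, averaged 25.8 ± 2.54 CPM over AG and 21.9 ± 6.18 CPM over GG, with overlapping groups. Among the relatives of ZAP, PARP12 averaged 1.25 ± 0.458 CPM over AG and 2.96 ± 0.576 CPM over GG, and TIPARP 11.2 ± 5.68 and 4.59 ± 2.24 CPM. Neither was called (edgeR adjusted p = 0.260 and 0.218).

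OAS1 makes 2′-5′ oligoadenylate when it meets double-stranded RNA. It was detected above 3 counts in 1 library of the 4. GG replicate 1 had 57 counts (2.71 CPM, 95% counting interval 2.05 to 3.51), whereas GG replicate 2 had 0, which allows up to 0.102 CPM. AG replicates 1 and 2 had 0 and 1 counts, and the limit for 0 counts was 0.214 CPM in AG replicate 1. GG replicate 1 was thus at least 26.5-fold above the other GG library, and the groups overlapped. Summed over each group, the ratio of GG to AG was 38.2 (95% counting interval 6.58 to 1533), which rests on GG replicate 1 alone: without it, no group is above 3 counts. With no filter on low counts, edgeR gave an unadjusted p of 0.0327 and an adjusted p of 0.141, and DESeq2 gave 0.0458 and 0.143.

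OAS3, a longer synthase that the RefSeq gene table places next to OAS1, had 5, 14, 22 and 24 counts in AG replicates 1 and 2 and GG replicates 1 and 2, and was not called (log2 fold change 0.78 ± 0.80, edgeR adjusted p = 0.552). OAS2 and OASL, named after their values were seen, were too sparse to test. OAS2 had 3 counts, all in GG replicate 2, and OASL, which lacks synthase activity, had 63 counts in AG replicate 1 (4.49 CPM) and 0, 3 and 1 in the others; once AG replicate 2 was left out, OASL was tested and called (edgeR adjusted p = 0.0143). Thus OAS1 and OASL were each carried by 1 library, from opposite groups.

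IFIT1 binds viral RNA that lacks the methylated cap of host messenger RNA. It had 4 and 5 counts in AG (0.285 and 0.254 CPM) and 10 and 4 counts in GG (0.475 and 0.136 CPM). All 4 counting intervals overlapped, with the widest bounds at 0.0372 and 0.873 CPM, so no difference was detectable at this depth. It was not tested, and without a filter its log2 fold change was 0.14 ± 1.64 (SE; edgeR adjusted p = 0.965). The other members of its family did not share one pattern. IFIT3, a partner that stabilises IFIT1 on RNA and was named after its values were seen, stood at 24 and 9 counts in AG and 24 and 18 in GG.

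IFIT5, an RNA-binding protein encoded in the same gene cluster, was high in AG replicate 1. AG replicate 1 had 487 counts (34.7 CPM) and AG replicate 2 had 84 (4.27 CPM), while the GG replicates had 20 and 1 (0.9498 and 0.0341 CPM). Both AG libraries lay above both GG libraries, but the AG pair differed widely from each other (19.5 ± 21.5 CPM, SD, n = 2). The log2 fold change of -5.35 ± 1.59 (SE) was not called by edgeR (adjusted p = 0.0807) and was called by DESeq2 (8.94e-05), without a filter (0.0110) and without AG replicate 2 (0.0128). Without AG replicate 1, GG replicate 1 or GG replicate 2 it was -3.16, -8.91 and -4.39 and was not called (adjusted p = 0.186, 0.125 and 0.252). PTPRC, and the summed blood markers that it dominates in AG, were likewise highest in AG replicate 1. Their part in the values of IFIT5, and of USP18, IRF7 and CGAS given with their groups, was not tested. The IFIT, OAS, MX and APOBEC3 families hold similar copies, so their estimated counts are uncertain.

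MX1 and MX2 encode dynamin-like GTPases, of which MX1 blocks influenza-like viruses and MX2 the nuclear entry of retroviruses; they are adjacent in the RefSeq gene table. MX1 had counts in 1 library of each group, 5 in AG replicate 1 (0.356 CPM, 95% counting interval 0.116 to 0.831) and 10 in GG replicate 2 (0.341 CPM, 0.164 to 0.627). AG replicate 2 and GG replicate 1 had 0 counts, which allow up to 0.152 and 0.142 CPM. The groups thus covered the same span, and MX1 was not tested. Without a filter, its log2 fold change was 0.01 ± 1.89 (SE; edgeR adjusted p = 0.997).

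MX2 was detected in all 4 libraries at a low level. AG replicate 1 had 6 counts (0.427 CPM) and AG replicate 2 had 14 (0.711 CPM), while GG replicate 1 had 4 (0.190 CPM) and GG replicate 2 had 18 (0.614 CPM). In each group replicate 1 was the lower library, and the groups overlapped. The log2 fold change was -0.49 ± 0.94 (SE; edgeR adjusted p = 0.765), and it turned to 0.10 without GG replicate 1 (adjusted p = 0.984).

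BST2, or tetherin, holds newly formed enveloped virus particles at the cell surface. It had 15 and 34 counts in AG replicates 1 and 2 (1.07 and 1.73 CPM) and 5 and 72 counts in GG (0.237 and 2.45 CPM). The lowest and the highest of the 4 libraries were both GG, 10.3-fold apart, with counting intervals of 0.0771 to 0.554 CPM and 1.92 to 3.09 CPM that did not overlap. The AG pair was 1.62-fold apart. The group means were almost equal, with 1.40 ± 0.466 CPM for AG and 1.35 ± 1.57 CPM for GG (SD, n = 2) and a log2 fold change of -0.05 ± 1.12 (SE; edgeR adjusted p = 0.981). Leaving out GG replicate 2 gave -2.55 and leaving out GG replicate 1 gave 0.81, and neither was called (adjusted p = 0.476 and 0.748).

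IFITM3, which hinders the fusion of virus and endosome membranes, could not be followed, and of its listed paralogs only IFITM5 had a row, with 4 counts in GG replicate 1 and 0 in the others. ZMPSTE24, a membrane protease that acts with IFITM proteins, was named after its values were seen and averaged 155 ± 19.9 CPM over AG and 184 ± 29.2 CPM over GG. It did not pass the test (edgeR adjusted p = 0.564).

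ISG15 is a ubiquitin-like protein that is secreted or attached to other proteins, and the genes that attach and remove it were measured although ISG15 itself was not. Of its 5 listed genes, 4 were tested and 0 were called by edgeR, against 12.9% of all tested genes. In edgeR 2 of the 4 had an unadjusted p under 0.05, against 32% of all tested genes. DESeq2 called USP18 and HERC5. USP18, the protease that removes ISG15 and also damps interferon signalling, had 196 and 44 counts in AG (14.0 and 2.24 CPM) and 1 and 10 counts in GG (0.0475 and 0.341 CPM). Both AG libraries lay above both GG libraries, with AG replicate 1 the highest. Its log2 fold change of -5.27 ± 1.31 (SE) came close to the threshold in edgeR (adjusted p = 0.0539) and passed it in DESeq2 (6.03e-05), without a filter (0.00726), without AG replicate 2 (0.00735) and after thinning to the smallest library's total (0.0464). Without AG replicate 1, GG replicate 1 or GG replicate 2 it was -3.44, -4.53 and -7.26 and was not called (adjusted p = 0.133, 0.226 and 0.168).

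HERC5, the main ligase for ISG15 in human cells, had levels of 35.8 and 21.3 CPM in the AG libraries and 7.88 and 13.4 CPM in the GG libraries. The groups did not overlap, and the log2 fold change was -1.42 ± 0.47 (SE), not called by edgeR (adjusted p = 0.1002) and called by DESeq2 (0.0330) and by edgeR without AG replicate 2 (0.0329), but not without any of the other 3 libraries (0.184 to 0.466). HERC6, a related ligase, had 11 counts in each AG library and 42 and 38 in GG, a log2 fold change of 1.29 ± 0.74 (edgeR adjusted p = 0.291). UBE2L6, the conjugating enzyme, had levels of 14.6 and 2.08 CPM over AG and 4.94 and 2.35 CPM over GG, with overlapping groups (edgeR adjusted p = 0.447). Its log2 fold change of -1.19 became -2.04 without AG replicate 2 (adjusted p = 0.0458) and turned to 0.79 without AG replicate 1 (0.518). UBA7, the activating enzyme, had 2 and 9 counts in AG and 9 and 1 in GG and was not tested.

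**Figure D2:**
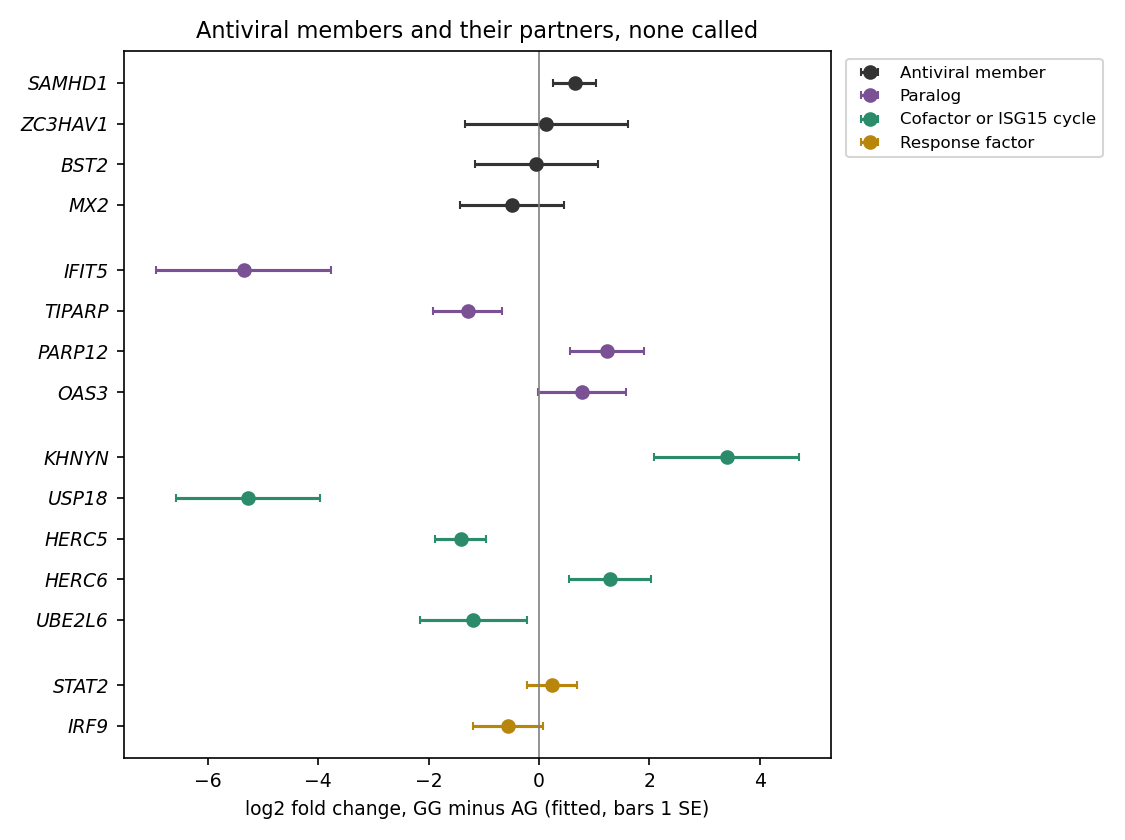
Fitted log2 fold change (GG minus AG, bars 1 SE) of the 4 tested antiviral members, of paralogs, of cofactors and genes of the ISG15 cycle, and of the factors that carry the interferon signal. The members lie between -0.49 and 0.65, whereas IFIT5 and USP18 lie at -5.35 and -5.27 and KHNYN at 3.40; none of the genes drawn was called by edgeR.

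The interferons that induce these genes in other cells had few counts. Of 11 interferon genes listed, 3 had a row, and none reached 10 counts in a library. IFNB1, named after its values were seen, had 6 and 1 counts in AG and 6 and 0 in GG. STAT2 averaged 6.17 ± 0.540 CPM over AG and 7.29 ± 0.835 CPM over GG, and IRF9 averaged 2.75 ± 0.945 and 1.86 ± 0.0164 CPM. Neither passed the test (edgeR adjusted p = 0.762 and 0.590). IRF7, an amplifier of interferon production, had 41 and 17 counts in AG and 0 and 2 in GG, so that AG was 43.3-fold above GG (95% counting interval 11.5 to 366; edgeR adjusted p = 0.0539; DESeq2 0.00774). The ratio was 21.7 without AG replicate 1, 73.6 without AG replicate 2 and 25.2 without GG replicate 1. Without GG replicate 2, AG was at least 12.1-fold higher.

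Of 12 tested genes among interferon receptors and JAK-STAT components, 0 were called by edgeR, 1 had an unadjusted p under 0.05, and 1, STAT6, was called by DESeq2 (adjusted p = 0.0165). STAT6 had 12 and 65 counts in AG and 0 and 4 in GG. With edgeR it was called when no filter was used (adjusted p = 0.037) and after thinning (0.0435). It was not called with any single library left out. The others with the smallest p were IFNGR2, a chain of the interferon gamma receptor, PIAS1, an inhibitor of STAT signalling, and JAK1, a receptor kinase, with log2 fold changes of -1.67, -0.68 and 0.71. The 5 tested paralogs and 10 tested cofactors likewise held 0 calls by edgeR, and DESeq2 called 1 and 4. In edgeR 1 and 4 of them had an unadjusted p under 0.05, against 32% of all tested genes. Over all genes, edgeR called 1709 (12.9% of those tested) and DESeq2 called 3339. IFNAR1, of the receptor list and named after its values were seen, had a log2 fold change of 1.64 with all libraries. It was 3.49 without AG replicate 2.

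Across all 7 related lists, 11 of 90 tested genes were called (12.2%, against 12.9% of all tested genes), of which 6 had the higher level in GG and 5 in AG. Their 90 log2 fold changes had a median of 0.18. The count was 25 with DESeq2, 18 without a filter, 7 when a mean of 10 CPM was required and 26 without AG replicate 2. It was 1 without GG replicate 1 and 2 without GG replicate 2, fits in which only the AG pair gives a spread.

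**Figure D3:**
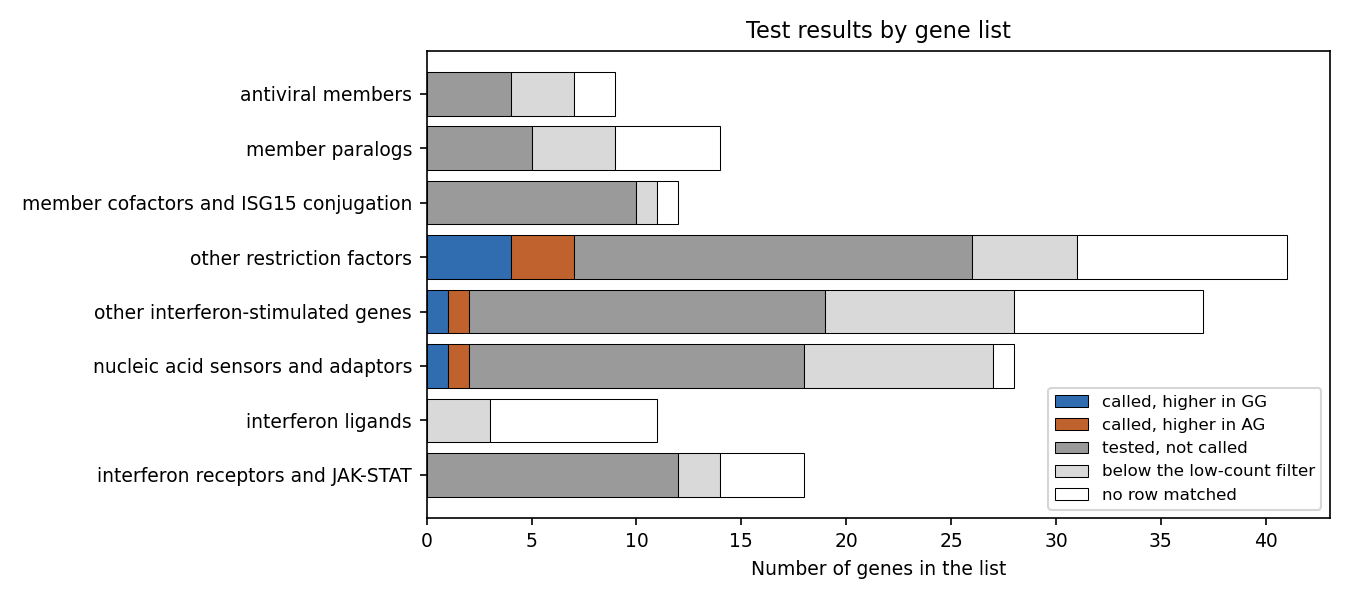
Number of genes in the list of antiviral members and in each of the 7 related lists, split into those called higher in GG, called higher in AG, tested and not called, below the low-count filter, and with no matched row. The 11 calls fall in 3 lists, with 7 among other restriction factors, 2 among other interferon-stimulated genes and 2 among sensors and adaptors, and 0 among the members. Of all tested genes 12.9% were called, against 26.9% of the tested other restriction factors.

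Other restriction factors held 7 of the 11 calls among 26 tested, 4 higher in GG and 3 higher in AG. That was 26.9% of the tested genes in this list, against 12.9% of all tested genes. In edgeR 14 of the 26 had an unadjusted p under 0.05, against 32% of all tested genes. APOBEC3G, a cytidine deaminase that mutates retroviral DNA, rose from 0.712 and 1.78 CPM in the AG libraries to 107 and 214 CPM in the GG libraries (6.97 ± 0.66 SE on the log2 scale, edgeR adjusted p = 0.00871), and it was called in all 11 alternatives. IFI16, a nuclear DNA sensor, had 0 counts in AG and 27 and 74 in GG, at least 22.5-fold higher, and lost its call without either GG library (adjusted p = 0.165 and 0.265). The bound was 14.4-fold without GG replicate 2, and 13.2-fold and 9.38-fold without AG replicates 1 and 2, where 3 counts are set against a single AG library. In the other direction, SERINC5, which enters retrovirus particles and lowers their infectivity, fell from 175 and 168 CPM in the AG libraries to 4.51 and 10.1 CPM in the GG libraries (log2 fold change -4.54 ± 0.49, adjusted p = 0.0117; 0.0561 without GG replicate 1). MPHOSPH8, of the HUSH complex that silences integrated retroelements, had the lower level in GG, with a log2 fold change of -1.95 ± 0.25 (adjusted p = 0.0152; 0.116 and 0.148 without GG replicates 1 and 2). The remaining 3 called genes, named after their values were seen, were RNASEH2B, RNASEH2C and SLFN13. RNASEH2B and RNASEH2C, subunits of ribonuclease H2 that were listed here with the restriction factors, rose in GG to 55.1 ± 6.71 and 109 ± 1.995 CPM. A further subunit, RNASEH2A, likewise named after its values were seen, went the other way, with 1 and 4 counts in AG and 0 in both GG libraries. It was too sparse to test. SLFN13, an RNA-cutting Schlafen protein, fell from 9.12 and 2.997 CPM in the AG libraries to 0.380 and 0.102 CPM in the GG libraries. All 3 lost their calls without either GG library (adjusted p = 0.141 to 0.325), SLFN13 also without AG replicate 1 (adjusted p = 0.0793) and RNASEH2C also with DESeq2-style size factors in edgeR (0.0533) and after thinning (0.0507).

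Among other interferon-stimulated genes, 2 of 19 tested were called (10.5%, against 12.9% of all tested genes). SAMD9L, a restriction factor for poxviruses, had 0 counts in AG and 34 and 29 in GG, at least 14.1-fold higher in GG (8.21-fold and 5.85-fold without AG replicates 1 and 2), and lost its call whichever library was left out (adjusted p = 0.0551 to 0.286). DDX60L, a helicase-like protein, fell from 7.69 and 7.01 CPM in the AG libraries to 0.665 and 0.205 CPM in the GG libraries (edgeR adjusted p = 0.0326; 0.109 and 0.181 without GG replicates 1 and 2). EPSTI1, a further interferon-stimulated gene, averaged 36.4 ± 0.270 CPM over AG and 14.6 ± 0.664 CPM over GG and was just short of the threshold (edgeR adjusted p = 0.0514), which it passed in 7 of 11 alternatives but not without GG replicate 1 or 2 (0.330 and 0.365).

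Among 18 tested sensors and adaptors, 2 were called, 1 higher in each group (11.1%, against 12.9% of all tested genes). CGAS, the cytosolic DNA sensor, was higher in AG, at 66.5 and 10.3 CPM against 2.47 and 1.33 CPM (edgeR adjusted p = 0.0462; 0.182 and 0.238 without GG replicates 1 and 2). Its log2 fold change of -4.34 was -2.45 without AG replicate 1, still called. Its partner STING1, named after its values were seen, had 3 counts in AG replicate 1 and 0 in the other libraries. MYD88, the adaptor of Toll-like receptors, had 0 counts in AG and 35 and 400 in GG, at least 97.1-fold higher, and lost its call without AG replicate 1, GG replicate 1 or GG replicate 2 (adjusted p = 0.0525, 0.0591 and 0.228). The bound rests mainly on GG replicate 2, without which it was 18.7-fold. It was 153-fold without GG replicate 1, and 56.7-fold and 40.4-fold without AG replicates 1 and 2. IRF1 and IRF3, transcription factors of the response, did not pass, at -1.33 and 0.77 on the log2 scale.

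**Figure D4:**
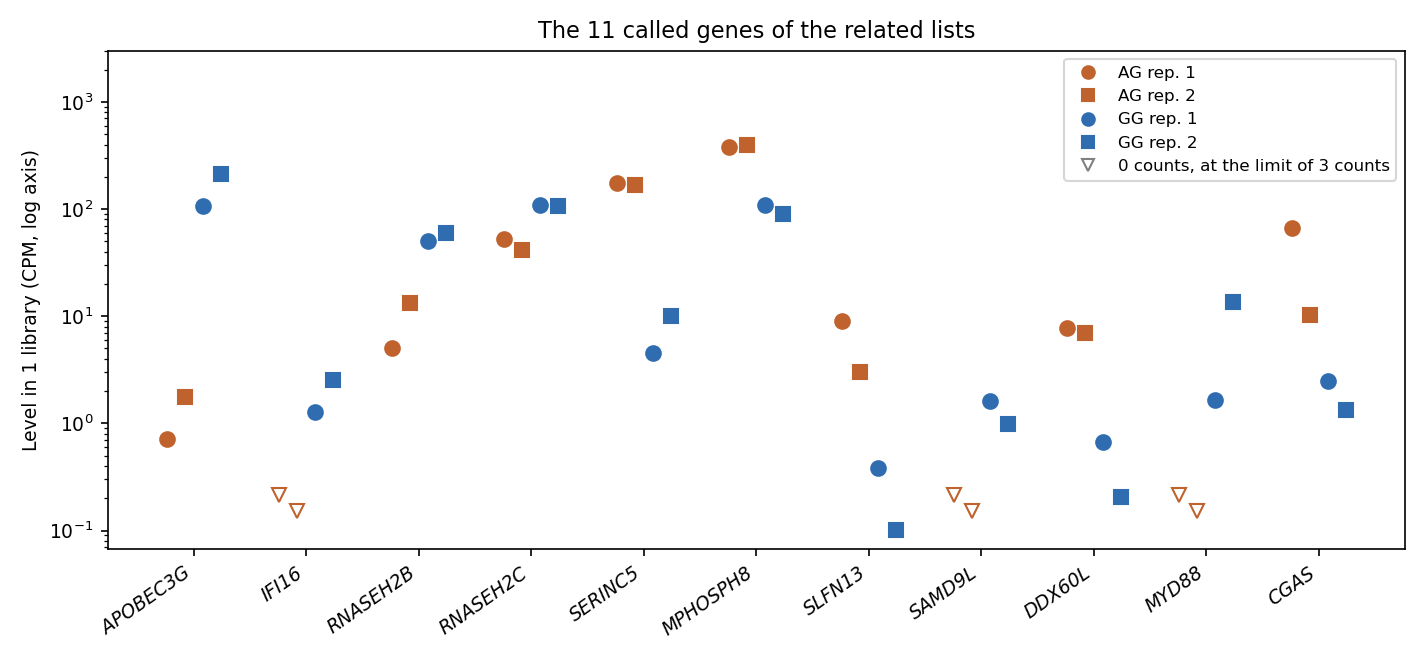
Level in each library, in CPM on a log axis, of the 11 called genes of the related lists (AG orange, GG blue; circles replicate 1, squares replicate 2; open triangles mark 0 counts at the level of 3 counts). APOBEC3G lies at 0.712 and 1.78 CPM in AG and 107 and 214 CPM in GG, and SERINC5 at 175 and 168 CPM in AG and 4.51 and 10.1 CPM in GG.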

How the data were processed

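RNA-seq libraries of 2 AG and 2 GG macaque morula samples were compared. The authors deposited 1 table of estimated counts of reads per Ensembl gene, not scaled to library size. The submitters' processing notes name Trim Galore, STAR 2.6.0c, Salmon 0.12.0 and rheMac8, with no role or order. The sources used here do not give the annotation release, the strand setting or any filter, so antisense and overlapping genes cannot be told apart. Symbols were matched by Ensembl identifier for 14654 of 21314 genes (68.8%).

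Rounded counts were fitted with edgeR 4.0.16 (R 4.3.3) and its quasi-likelihood F test, with group as the term, TMM factors and Benjamini-Hochberg adjustment over every tested gene; calls were made at an adjusted p under 0.05. The filter filterByExpr used a minimum count of 10 and a minimum total of 15. Standard errors follow from the F statistics. A fold against 0 counts was taken against 3 counts (over the group, or of the library between replicates). Intervals are exact and cover counting error only, since no molecular identifiers are named. The script was tested on simulated data. Alternatives were DESeq2 1.42.0, other normalizations and filters, thinning, a replicate block and leaving out each library; the lone library of a group is then assumed to vary like the other group.

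The members, lists and naming rule were chosen with earlier results of these data known. The rule names every member, up to 4 genes with the smallest p per other list, ligands with at least 10 counts, KHNYN, STAT2, IRF9, the ISG15 cycle, and the 3 genes most like the best counted member; some genes it names are not reported here. Neighbouring genes come from the RefSeq table of T2T-MMU8v2.0, a build other than rheMac8, and no coordinates are given.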

Additional observations from a re-analysis of the deposited data

How the results depend on the processing

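No antiviral member was called under any of the 11 alternatives, in which 1 to 7 members were tested; the smallest adjusted p of a member was 0.123, of SAMHD1 without AG replicate 2. The count of genes called over all genes, 1709, became 3339 with DESeq2, 2609 without a filter, and 84 to 3786 when 1 library was left out. The count over the related lists, 11, became 25, 18 and 1 to 26 in the same order, and 7 with a minimum mean of 10 CPM, where fewer genes were tested; the cause of the other changes was not tested. With 1 library left out, log2 fold changes of uncalled genes that changed sign ranged from -2.55 to 0.81 for BST2, -1.58 to 0.10 for MX2, -0.82 to 6.84 for ZC3HAV1, -2.04 to 0.79 for UBE2L6, -0.0681 to 0.39 for the cumulus marker PTGS2 and -0.56 to 0.52 for the sperm marker SPAM1. After thinning, those of PTGS2 and SPAM1 were -0.0058 and 0.0768. None of the 15 called named genes changed sign in any alternative.

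The labels tie same-numbered AG and GG libraries by their number alone. The correlation of their deviations was 0.0940 over 13227 genes. With a pair of libraries per group, this value cannot show whether same-numbered libraries shared a batch. With the replicate block, 1697 genes, 0 members and 10 related genes were called, IFIT5 was called (adjusted p = 0.0132), and IFI16, SAMD9L and RNASEH2C were not (0.0509, 0.0657 and 0.0579). Counting members' identifiers together was not run, since 0 members had more than 1 row. At 4 to 10 counts, as for IFIT1, depth limits what can be seen.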
